A study of Mus musculus with 6 samples.

Results

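The 9 chemokine ligand genes Ccl3, Ccl4, Ccl5, Ccl6, Ccl9, Pf4, Ppbp, Cxcl2 and Cxcl10 were followed in sorted mouse pre-granulocyte-macrophage progenitors (PreGMs). Every probe set annotated to exactly 1 of these symbols was taken, which gave 9 probe sets, 1 per gene, out of 34760 probe sets and 19937 genes. RNA of 6 samples, 3 per genotype, was hybridised to Affymetrix mouse gene arrays, 1 array each, and the design text counts 3 mice in each group. Both groups were female C57BL/6 mice whose Cebpa alleles were both floxed, and both had been injected with pIC (polyinosinic-polycytidylic acid) 18 days before bone marrow was taken. One group carried nothing further (labelled Cebpa flox/flox), and the other also carried the Mx1Cre transgene (labelled Cebpa flox/flox;Mx1Cre), in which the interferon-responsive Mx1 promoter drives Cre in all cells that answer interferon, so that deletion is not limited to PreGMs. PreGMs are early myeloid progenitors, sorted here as Kit-positive cells that lacked lineage markers, Sca1, CD150, CD41, FcγRII and endoglin. The ages of the mice are not given in the labels.

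Chemokines are small secreted proteins that steer leukocytes by binding receptors on the target cell. CC chemokines (Ccl genes) have neighbouring cysteines near the amino terminus, and CXC chemokines (Cxcl genes, Pf4 and Ppbp) have a residue between them. In bone marrow some of them also act on progenitors themselves, among them the products of Ccl3 and Pf4, which are known to restrain the proliferation of stem and progenitor cells. Ccl6 and Ccl9 are rodent genes of the macrophage inflammatory protein family, and Pf4 and Ppbp are stored in the granules of megakaryocytes and platelets.

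RefSeq upstream windows were found for 7 of the 9 genes. The 250 bases before the annotated start (build GRCm38.p6, written 5′ to 3′ on the gene's strand) are shown for 6 of them. Ccl9, Ccl6 and Ccl3 are shown because they stand next to each other and rose together, Ppbp and Pf4 because they are direct neighbours, and Cxcl10 because its window carried motifs of interferon and NF-κB factors while its level did not pass the test. Capitals mark matches, on either strand, to TTGCNNAA (C/EBP), AGATAA of the GATA factors, GAGGAA of PU.1, TATAAA of the TATA box, GGGANNTTCC of NF-κB and GAAANNGAAA of the interferon-stimulated response element (ISRE).
Ccl9, chr11:83578637-83578886, minus strand: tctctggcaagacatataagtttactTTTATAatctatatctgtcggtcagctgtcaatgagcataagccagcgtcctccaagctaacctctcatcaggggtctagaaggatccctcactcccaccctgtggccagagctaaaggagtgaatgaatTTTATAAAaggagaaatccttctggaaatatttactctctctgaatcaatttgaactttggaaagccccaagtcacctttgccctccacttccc
Ccl6, chr11:83593088-83593337, minus strand: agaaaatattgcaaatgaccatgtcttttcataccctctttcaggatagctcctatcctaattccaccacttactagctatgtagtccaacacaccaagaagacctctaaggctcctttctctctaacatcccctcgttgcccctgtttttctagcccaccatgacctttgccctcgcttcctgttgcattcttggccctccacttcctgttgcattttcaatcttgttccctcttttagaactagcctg
Ccl3, chr11:83649379-83649628, minus strand: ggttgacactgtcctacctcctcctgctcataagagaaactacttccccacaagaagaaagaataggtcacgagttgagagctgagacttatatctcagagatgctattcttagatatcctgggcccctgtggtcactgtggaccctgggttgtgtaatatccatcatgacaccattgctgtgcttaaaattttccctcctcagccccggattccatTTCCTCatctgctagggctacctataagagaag
Ppbp, chr5:90768268-90768517, plus strand: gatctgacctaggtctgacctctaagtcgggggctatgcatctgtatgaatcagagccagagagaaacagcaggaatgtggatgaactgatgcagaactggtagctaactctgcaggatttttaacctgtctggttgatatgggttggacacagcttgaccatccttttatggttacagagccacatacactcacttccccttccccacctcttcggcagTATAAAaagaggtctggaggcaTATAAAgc
Pf4, chr5:90772185-90772434, plus strand: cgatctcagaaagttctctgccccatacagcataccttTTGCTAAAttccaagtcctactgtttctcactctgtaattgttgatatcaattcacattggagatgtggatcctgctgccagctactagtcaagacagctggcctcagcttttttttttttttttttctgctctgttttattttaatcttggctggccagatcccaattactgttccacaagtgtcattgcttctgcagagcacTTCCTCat
Cxcl10, chr5:92348890-92349139, minus strand: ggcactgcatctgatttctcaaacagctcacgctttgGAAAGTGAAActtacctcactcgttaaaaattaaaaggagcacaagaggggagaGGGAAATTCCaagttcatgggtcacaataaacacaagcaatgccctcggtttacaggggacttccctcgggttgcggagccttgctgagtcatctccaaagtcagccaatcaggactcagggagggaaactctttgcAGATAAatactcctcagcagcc

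The C/EBP letters were found in 1 of the 7 windows, that of Pf4, where they began 212 bases before the start. Over all 32851 upstream windows of the same length, 9.56% held them. The windows of the genes that rose, Ccl9, Ccl6 and Ccl3, had no match to these C/EBP letters. GAGGAA was found in the windows of Ccl3 and Pf4 (23.3% of all windows) and TATAAA in those of Ccl9 and Ppbp (12.4%), where 2 of the 3 matches of Ccl9 overlap on opposite strands. GGGANNTTCC lay in the windows of Cxcl10 and Cxcl2 (1.21% of all windows), and Cxcl10 alone of the 7 held GAAANNGAAA (2.98%) and AGATAA (9.99%). Ccl6 had no match to any of the 6 motifs. A local alignment of the upstream windows with 50 transcribed bases added paired Ccl6 and Ccl9 over 74 columns with 79.7% identical bases around their starts, the highest score among the 7 genes. A match is only a run of letters and does not show that a factor binds there.

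Of the 9 genes, 3 rose in the arrays labelled Mx1Cre (Ccl9, Ccl3 and Ccl6) and 2 fell (Ccl5 and Ppbp), while Pf4, Ccl4, Cxcl2 and Cxcl10 did not pass. A gene was counted as changed at an adjusted p under 0.05 in a limma fit over all 19937 genes with Benjamini-Hochberg adjustment. Among all genes 4.91% changed, 2.63% upward and 2.28% downward. The 3 values of each label did not overlap for 6 of the 9 genes, against 21.6% of all genes. The median difference of the 9 genes was 0.04 log2 units and that of all genes -0.01, and the members moved in both directions. The 5 calls were lost (0 of 9) in a per-gene test that pools no spread across genes. That test passed 0 of all 19937 genes. It gave the 5 called ligands an unadjusted p under 0.05, as it did 2124 of all genes. Only 2 of the 9 genes, Ccl9 and Ppbp, passed when all 34760 probe sets were fitted, of which 302 passed.

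**Figure D1:**
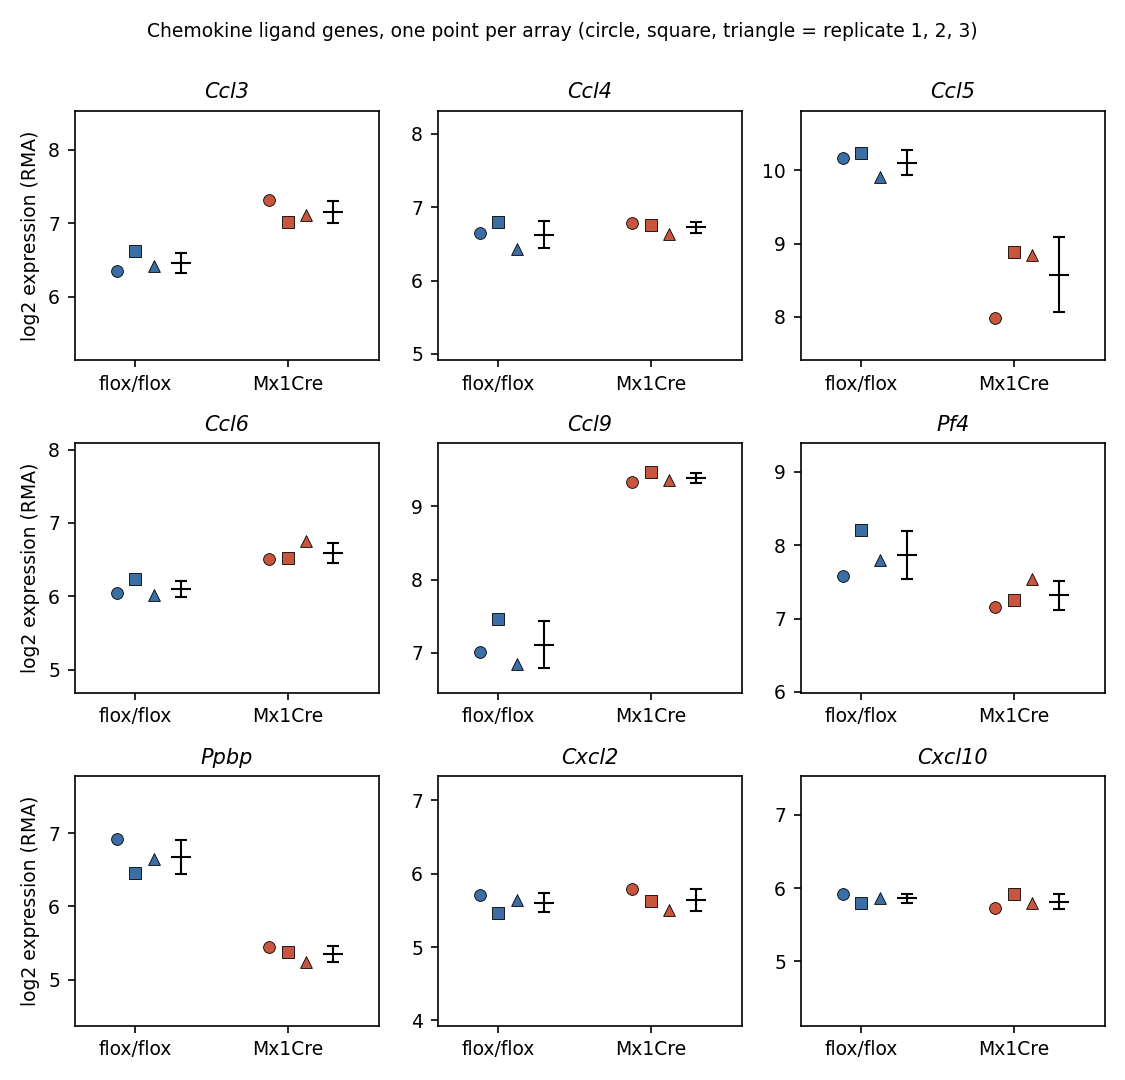
Log2 expression (RMA) of the 9 chemokine ligand genes on each array, with circles, squares and triangles for replicates 1, 2 and 3 and with mean and SD (n = 3) beside the points; every panel spans the same number of log2 units. The labels separate in Ccl3, Ccl5, Ccl6, Ccl9, Ppbp and, by a narrow margin of 0.04, Pf4.

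The targeted gene ran against the genotype labels. Cebpa read 6.93, 6.71 and 6.85 on flox/flox arrays 1 to 3 and 8.71, 9.31 and 8.98 on Mx1Cre arrays 1 to 3, a difference of 2.17 ± 0.14 log2 units (SE, limma adjusted p = 2.65e-05). Where its probes lie relative to the deleted part was not used here. Whether the labels of the groups were exchanged was not tested. All directions given here, above and below, follow the deposited labels and would turn with them. Of the sort genes, Kit averaged 10.5 under the flox/flox label and 10.6 under the Mx1Cre label. Slamf1, which encodes the excluded CD150, averaged 5.46 and 5.29, below the lower quartile of gene means (5.63). Under the same labels Itga2b, which encodes the excluded CD41, averaged 7.95 and 7.63. Eng, which encodes the excluded endoglin, averaged 7.37 and 7.31. Itga2b and Eng were above the median of gene means (6.64), and neither passed. Of 12 measured sort genes 1 rose, Fcgr2b, which encodes the excluded FcγRII (6.74 to 7.16, 0.43 log2 units, limma adjusted p = 0.041), and 1 fell, Fcgr3 (8.14 to 7.09, -1.04 log2 units, limma adjusted p = 0.0097). Across genes, which are not independent replicates, arrays of 1 label correlated at 0.992 to 0.995 and arrays of different labels at 0.984 to 0.990. Monocyte and macrophage markers were higher for 11 of 18 measured genes and neutrophil markers for 10 of 16, with none lower, led by Ly86, Ms4a6c, F13a1 and Mpeg1 in the first list (3.83, 3.61, 2.78 and 2.32 log2 units) and Ctsg, S100a9, Cxcr2 and S100a8 in the second (3.54, 2.88, 2.79 and 2.58). T and NK cell markers were lower for 2 of 19, megakaryocyte and platelet markers for 1 of 15 and erythroid markers for 3 of 11 (Car2, Hemgn and Rhag), with none higher. Dendritic cell markers were higher for 2 of 11 (Flt3 and Clec9a), and stromal and endothelial markers lower for 1 of 11 (Pdgfrb). Of 13 mast cell, basophil and eosinophil markers 3 were higher (Mcpt8, Hdc and Ms4a2) and 3 lower (Fcer1a, Cyp11a1 and Cpa3), and none of 9 B lymphoid markers passed. Several of these lists move with the ligands described next, and fewer cells of a type and less RNA per cell cannot be told apart in bulk samples.

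Ccl9 had the largest difference of the 9 ligands and ranked 22 among all genes by size. Its product, also called MIP-1γ, attracts myeloid and dendritic cells through the receptor CCR1. In replicates 1, 2 and 3 it read 7.01, 7.47 and 6.85 under the flox/flox label and 9.33, 9.46 and 9.35 under the Mx1Cre label. The Mx1Cre values lay within a narrow band, and the nearest flox/flox value was 1.87 log2 units below them. The arrays labelled Mx1Cre were higher by 2.27 ± 0.14 log2 units (SE), 4.83-fold (limma adjusted p = 2.24e-05). Taken alone, Ccl9 and each of the other 5 genes without overlap had an exact two-sided permutation p of 0.1, below which 3 against 3 arrays cannot go.

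Ccl6, the ligand known as C10 that also binds CCR1, showed a smaller rise. Its values were 6.05, 6.23 and 6.02 in the flox/flox arrays and 6.51, 6.52 and 6.75 in the Mx1Cre arrays. The groups did not overlap, with a gap of 0.28. The difference was 0.49 ± 0.10 log2 units (SE), 1.41-fold (limma adjusted p = 0.0237). Leaving out flox/flox replicate 1, flox/flox replicate 3 or Mx1Cre replicate 3 gave differences of 0.47, 0.45 and 0.42 with limma adjusted p-values of 0.0872, 0.0947 and 0.102, in fits where the calls among all genes fell from 979 to 541, 547 and 538. The value was 0.128 with all probe sets fitted.

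Ccl3 encodes MIP-1α, a ligand of CCR1. On the flox/flox arrays it read 6.35, 6.62 and 6.42, and on the Mx1Cre arrays 7.32, 7.02 and 7.12. All Mx1Cre values exceeded all flox/flox values, by at least 0.41. The difference was 0.69 ± 0.11 log2 units (SE), 1.62-fold (limma adjusted p = 0.00562). With all probe sets fitted it lay outside the threshold (limma adjusted p = 0.0622).

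Ccl4, which encodes MIP-1β, the chemokine most like the product of Ccl3, gave 6.65, 6.80 and 6.43 in the flox/flox arrays. The Mx1Cre arrays gave 6.78, 6.75 and 6.64. The groups overlapped, and the difference of 0.10 log2 units (95% interval -0.14 to 0.34, limma adjusted p = 0.760) did not pass. With 1 array left out it ran from 0.0024 to 0.19 and passed in none of these fits. The rise of Ccl3 exceeded that of Ccl4 by 0.59 log2 units. The within-array difference of the genes did not overlap between labels (exact two-sided permutation p = 0.1, the smallest possible here, and 0.12 after adjustment over the 6 pairs compared, which were chosen with values known). The annotation lists a predicted transcript of Ccl4 that overlaps Ccl3, and similar CC genes can share probe signal. The values of Ccl3 and Ccl4 may therefore not be fully separate, which was not measured.

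Monocyte and macrophage markers and neutrophil markers moved with these 3 genes. The mean log2 level of 18 monocyte and macrophage markers was 6.40 to 6.57 in the flox/flox arrays and 7.68 to 7.85 in the Mx1Cre arrays. That of 16 neutrophil markers was 6.21 to 6.37 and 7.34 to 7.75. In each list 3 markers averaged below the lower quartile of gene means. Among them was Ly6g, the mature neutrophil antigen, at 4.54 under the flox/flox label and 4.51 under the Mx1Cre label. Their part in the rise of Ccl9, Ccl3 and Ccl6 was not tested.

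Ccl5 moved in the opposite direction. It encodes RANTES, a ligand of CCR1 and CCR3 made by T cells, NK cells and activated myeloid cells. The flox/flox arrays read 10.2, 10.2 and 9.91 and the Mx1Cre arrays 7.99, 8.89 and 8.84. Every Mx1Cre value was more than 1 log2 unit below every flox/flox value (gap 1.01), and Mx1Cre replicate 1 lay apart from the other Mx1Cre arrays. The difference was -1.53 ± 0.21 log2 units (SE), 2.89-fold lower in the arrays labelled Mx1Cre (limma adjusted p = 0.00266). Without Mx1Cre replicate 1 it was -1.24 (limma adjusted p = 0.000667), and with all probe sets fitted the adjusted p was 0.0564.

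T and NK cell markers averaged 6.65 to 6.72 over 19 genes in the flox/flox arrays and 6.05 to 6.37 in the Mx1Cre arrays. Of them Gzmb (granzyme B) and Trat1 (a T cell receptor adaptor) fell, with differences of -4.45 and -2.56 log2 units, and the other 17 did not pass. The median difference of the list was -0.09. Gzmb, like Ccl5, was lowest in Mx1Cre replicate 1, at 5.80 against 7.35 and 6.99. Trat1 was instead highest among the Mx1Cre arrays there, at 4.28 against 3.76 and 3.84. Being lowest in that array was not particular to this list. Of genes outside it that fell, Rtp4, Usp18, Ifit1, Ddx58 and Gp5 were also lowest there, and Ppbp, Bcl3 and Rhag were not. The T cell chain Cd3e did not pass, at 6.52 in both groups, and Nkg7, a cytotoxic granule gene, had a difference of -0.42 log2 units (limma adjusted p = 0.131). Of the list, 5 markers averaged below the lower quartile of gene means. Their part in the fall of Ccl5 was not tested.

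**Figure D2:**
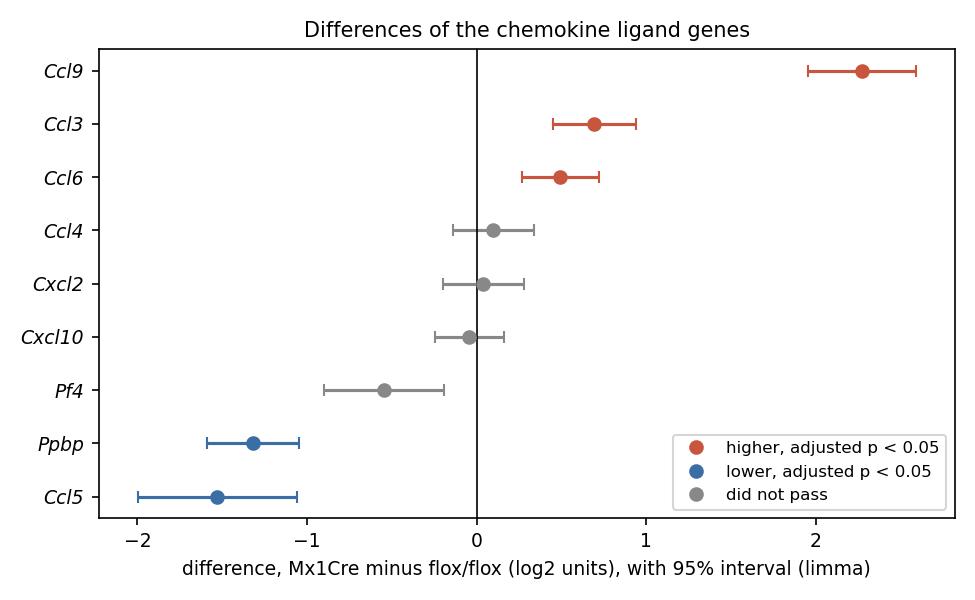
Difference of each ligand gene, Mx1Cre minus flox/flox, in log2 units with its 95% interval from limma; red and blue mark genes that rose or fell at an adjusted p under 0.05, grey those that did not pass. Ccl9 stands at 2.27 and Ccl5 at -1.53, and the intervals of Ccl4, Cxcl2 and Cxcl10 include 0.

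Ppbp encodes pro-platelet basic protein, the precursor of the CXCR2 ligand CXCL7. In flox/flox arrays it read 6.91, 6.46 and 6.65, and in Mx1Cre arrays 5.45, 5.38 and 5.24. The groups were 1.01 log2 units apart at their nearest values. The difference was -1.32 ± 0.12 log2 units (SE), 2.50-fold lower in the arrays labelled Mx1Cre (limma adjusted p = 0.000255). The Mx1Cre mean of 5.35 was below the lower quartile of gene means, where RMA values tend to understate folds.

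Pf4 encodes platelet factor 4 (CXCL4), which binds heparin and, in human, a form of CXCR3. Its values were 7.57, 8.21 and 7.80 in the flox/flox arrays and 7.16, 7.26 and 7.54 in the Mx1Cre arrays. The groups came within 0.04 log2 units of each other without overlapping. The difference of -0.54 ± 0.16 log2 units (SE) did not pass (limma adjusted p = 0.0921), and its unadjusted 95% interval ran from -0.90 to -0.19. The adjusted p ranged from 0.0522 to 0.526 over the alternatives. The change of Ppbp exceeded that of Pf4 by 0.77 log2 units downward, but the within-array difference of the genes overlapped between labels (exact two-sided permutation p = 0.2).

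Megakaryocyte and platelet markers, Ppbp and Pf4 left out, averaged 6.79 to 6.85 over 15 genes in the flox/flox arrays and 6.57 to 6.69 in the Mx1Cre arrays. Gp5, a platelet glycoprotein, fell 1.94-fold (-0.95 log2 units, limma adjusted p = 0.0203). Itga2b, which encodes the CD41 excluded by the sort, differed by -0.33, Gp9 by -0.21 and Itgb3 by -0.10, and none of these passed. Of the 15 markers 3 averaged below the lower quartile of gene means. Their part in the values of Ppbp and Pf4 was not tested.

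Cxcl2, the CXCR2 ligand MIP-2 that draws neutrophils, read 5.71, 5.46 and 5.64 in the flox/flox arrays and 5.80, 5.63 and 5.50 in the Mx1Cre arrays. Cxcl10, the interferon-induced CXCR3 ligand IP-10, read 5.92, 5.79 and 5.87 and then 5.73, 5.92 and 5.80. Both genes overlapped between the groups and were dim. The difference of Cxcl2 was 0.04 log2 units (95% interval -0.20 to 0.28, limma adjusted p = 0.929). That of Cxcl10 was -0.04 (95% interval -0.25 to 0.16, limma adjusted p = 0.895). The interval of each excludes a change as large as that of Ccl3, on a scale that compresses dim genes.

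Of 23 interferon response genes 5 fell and 1 rose, and of 23 NF-κB and immediate early genes 2 fell and none rose. Among the first, Rtp4 and Usp18 fell 2.79-fold and 2.30-fold (limma adjusted p = 0.00408 and 0.00229), and Gbp3, a guanylate-binding protein, rose 2.93-fold (limma adjusted p = 0.000116). Ifit1 (7.04 against 6.18) and Ddx58, a sensor of viral RNA (9.31 against 8.51), fell 1.81-fold and 1.74-fold in the arrays labelled Mx1Cre (limma adjusted p = 0.0214 and 0.0093). The medians of the interferon and NF-κB lists were -0.27 and -0.0025 log2 units. Ier3, an early response gene, fell 1.96-fold and Bcl3, an NF-κB cofactor, 1.45-fold (limma adjusted p = 0.00325 and 0.00719). Cxcl10, whose window held the ISRE and NF-κB letters shown above, differed by -0.04 log2 units.

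In the mouse annotation the CC genes stand on chromosome 11 in the order Ccl5, Ccl9, Ccl6, Ccl3 and Ccl4, between Heatr9 and Wfdc17. The direct neighbours Ccl5 and Ccl9 moved in opposite directions. Ccl5 fell by 1.53 log2 units, whereas Ccl9 beside it rose by 2.27, a gap of 3.80 between the differences. Each gene alone separated the labels, in opposite directions. The within-array difference of the pair therefore could not overlap between labels, and its exact two-sided permutation p of 0.1 adds nothing. Ccl9 also rose by 1.78 more than Ccl6, its other neighbour. For Ccl9 and Ccl6 the within-array difference did not overlap between labels (exact two-sided permutation p = 0.1, the smallest possible here, and 0.12 after adjustment over the 6 pairs). At the ends of the row Wfdc17 rose by 1.20 log2 units (limma adjusted p = 0.0132) and Heatr9 did not pass (-0.06).

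Ppbp and Pf4 stand on chromosome 5 in a row of CXC genes that runs Cxcl5, Ppbp, Pf4, Cxcl3, Cxcl15, Cxcl1 and Cxcl2. Only Ppbp of these 7 genes passed. Cxcl5, Cxcl3, Cxcl15 and Cxcl1 differed by -0.05, -0.11, 0.11 and -0.05 log2 units. Mthfd2l, a folate enzyme gene just after Cxcl2, fell by 0.60 (limma adjusted p = 0.0094). Around Cxcl10 on the same chromosome, Cxcl9, Art3, Nup54 and Scarb2 differed by 0.04, -0.02, 0.05 and -0.17, and none passed.

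**Figure D3:**
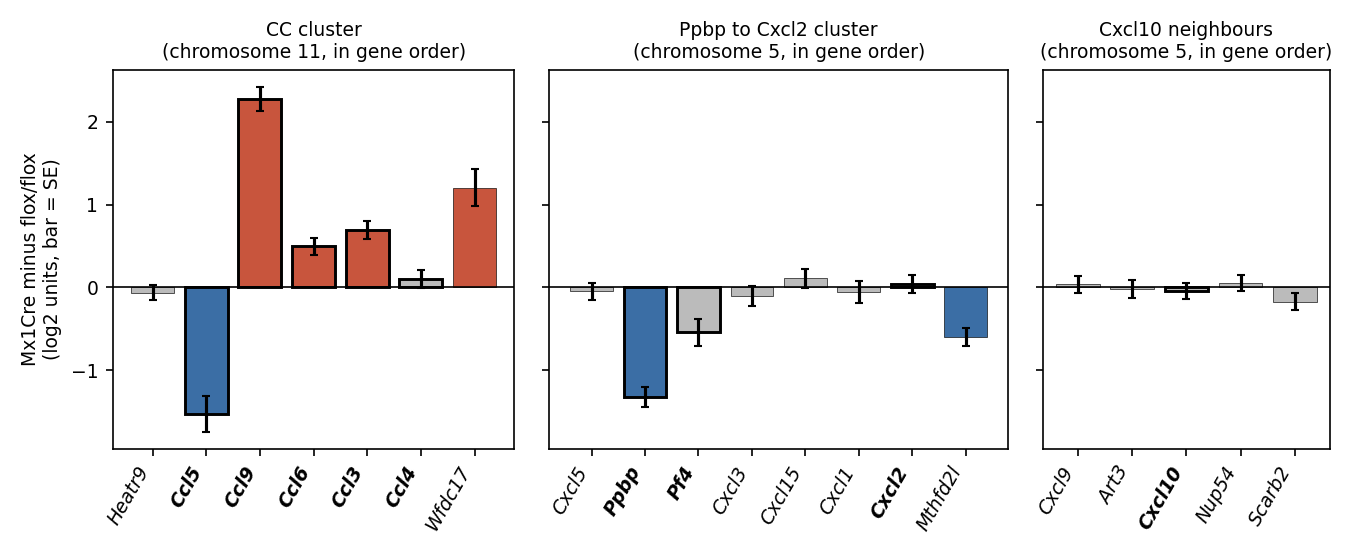
Difference, Mx1Cre minus flox/flox, in log2 units (bars, with SE) of the ligand genes (thick outline, bold names) and their protein-coding neighbours in chromosome order; red and blue mark genes that passed, grey those that did not. Ccl5 (-1.53) and Ccl9 (2.27) stand side by side, and Ppbp (-1.32) stands beside Pf4 (-0.54, did not pass), with the other CXC genes of that row between -0.11 and 0.11.

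Among receptors of these ligands, Ccr1 and Cxcr2 were higher in the arrays labelled Mx1Cre. Ccr1 binds the products of Ccl9, Ccl6 and Ccl3, which rose, and that of Ccl5, which fell. Cxcr2 binds those of Ppbp and Cxcl2. Ccr1 was dim and rose from 4.70, 4.62 and 4.34 in the flox/flox arrays to 4.93, 5.02 and 5.07 in the Mx1Cre arrays, by 0.46 ± 0.11 log2 units (SE, limma adjusted p = 0.0425). Ccr1 was tested in 15 alternatives and passed in 6, and it lost its call with the replicate block (limma adjusted p = 0.0583) and in 5 of the 6 fits without 1 array (0.0603 to 0.155). Cxcr2, the neutrophil receptor, read 7.28, 6.74 and 7.17 in the flox/flox arrays and 9.50, 10.3 and 9.79 in the Mx1Cre arrays. It rose 6.89-fold while its ligand Ppbp fell 2.50-fold and its ligand Cxcl2 did not pass. Cxcr3, the receptor of Cxcl10, differed by -0.16 and Ccr3 by -0.14, and neither passed (limma adjusted p = 0.637 and 0.514).

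Of 23 chemokine receptor genes 4 rose, Cxcr2, Ccr2, Cx3cr1 and Ccr1, and none fell, against 2.63% of all genes higher. Of these 4, Cxcr2 is also in the neutrophil list and Ccr2 and Cx3cr1 are in the monocyte and macrophage list counted above, and the part of those cells was not tested. Ccr2, the receptor of monocyte emigration, rose 3.26-fold (7.34 ± 0.19 to 9.04 ± 0.27, SD, n = 3 each, limma adjusted p = 0.000154). Cx3cr1 rose 1.49-fold (limma adjusted p = 0.00851). The median of the receptors was -0.05 log2 units, near that of all genes, and 11 of the 23 averaged below the lower quartile of gene means. With all probe sets fitted, Cxcr2 and Ccr2 passed in place of 4 receptors.

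Of 27 other chemokine ligand genes none passed in either direction with limma, 1 having an unadjusted p under 0.05 (Ccl17, chosen for naming after its value was seen, at -0.22 log2 units with a limma adjusted p of 0.218). The per-gene test without pooling passed 0 of all 19937 genes, so its lack of calls here says nothing about these ligands. Their median was -0.04 log2 units. Of the 27 genes 6 averaged below the lower quartile of gene means and only 4 above the median of gene means. Of all genes 4.91% passed with limma.

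**Figure D4:**
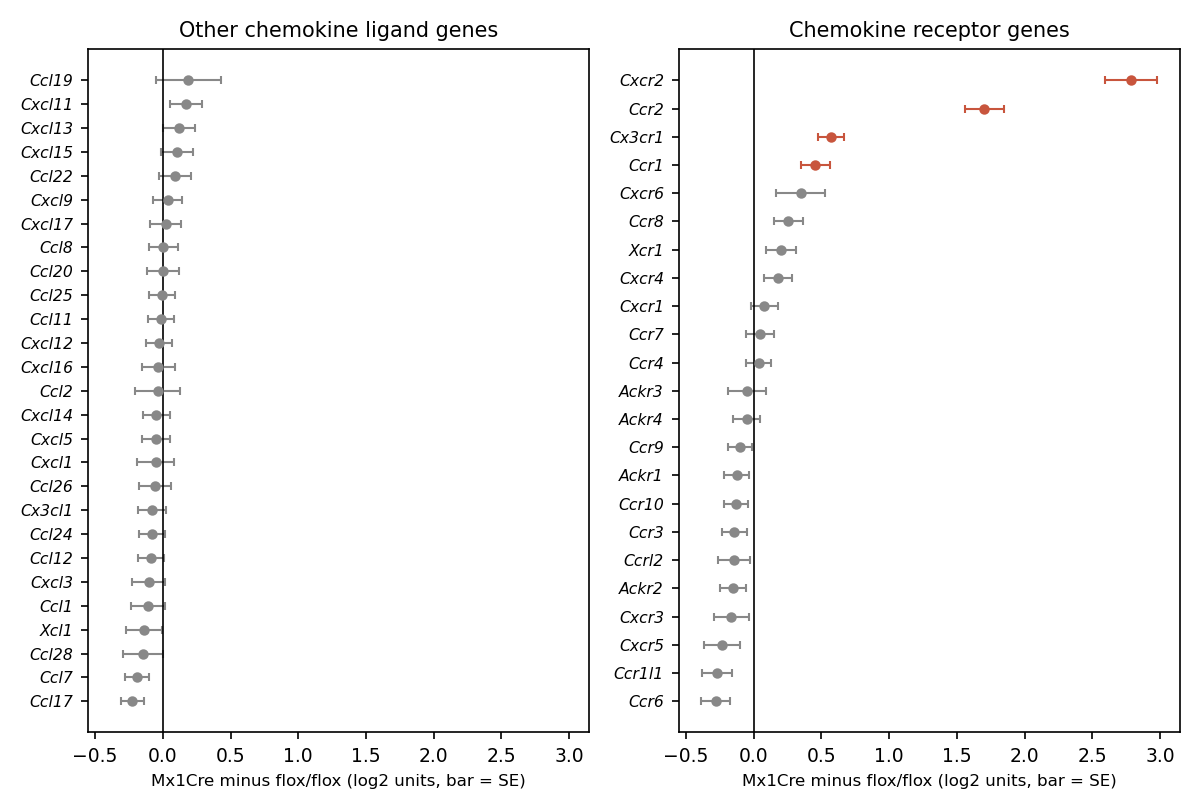
Difference, Mx1Cre minus flox/flox, in log2 units with SE, of 27 other chemokine ligand genes (left) and 23 chemokine receptor genes (right), ordered by size; red marks genes that rose at an adjusted p under 0.05. No other ligand passed, and Cxcr2, Ccr2, Cx3cr1 and Ccr1 rose.

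Of 13 genes that store or trim chemokines 3 rose, 1 fell and 9 did not pass. Cathepsin G (Ctsg), which in human neutrophils cuts the Ppbp product to its active form, rose 11.6-fold (8.05 to 11.6, limma adjusted p = 2.02e-05), and the related proteases Elane and Prtn3 rose 4.23-fold and 4.12-fold. These 3 are also among the neutrophil markers counted above as higher, and the part of neutrophil-lineage cells was not tested. Dpp4, the dipeptidyl peptidase CD26, which removes the first residues of many chemokines, read 11.6, 11.3 and 11.4 in the flox/flox arrays and 9.93, 9.90 and 9.94 in the Mx1Cre arrays. It fell 2.85-fold (limma adjusted p = 2.91e-05). Srgn, which encodes serglycin, the granule proteoglycan that holds Pf4, differed by -0.24 log2 units and did not pass (limma adjusted p = 0.144).

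For each ligand that passed, the 3 genes with the most similar values over the 6 arrays were found by the root mean square distance of the log2 values, each gene centred on its own mean. The likeness includes the difference between the labels and is a description. Nearest to Ccl9 were Mpeg1, a pore-forming protein of macrophages (distance 0.20), Ctss, the lysosomal protease cathepsin S (0.24), and Abcd2 (0.24). Nearest to Ccl5 were Prkcq, protein kinase C θ (0.14), Lat, a T cell receptor adaptor (0.17), and Plxdc2 (0.18). Nearest to Ppbp was Dpp4 (0.12), followed by Atp8b1 (0.13) and Mcoln3 (0.15). Ccl3 lay closest to Dtx4 (0.063), Gas2l3 (0.073) and Lgalsl (0.077), and Ccl6 to Acot1 (0.045), Serpinb3c (0.049) and Cd163 (0.055).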

How the data were processed

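The deposited log2 expression values, 1 per probe set and array, came from RMA in the affy software, per the submitters' processing notes. Versions, chip definition and genome build were not given in the sources used here. RMA corrects background, quantile normalizes and summarises probes on the log2 scale, and it understates folds of dim genes. Per the labels' protocols, 20 ng of total RNA was amplified first. Array medians lay between 6.43 and 6.55. Symbols came from the platform annotation (1 symbol for 21640 probe sets, several for 1321, none here for 11799), which can be old; 21553 matched the GRCm38.p6 RefSeq table by Entrez number and 0 symbols changed. The probe set of highest mean stood for a gene.

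Differences were fitted with limma 3.58.1 in R 4.3.3 (lmFit, eBayes, no covariates), which was checked on simulated data, and adjusted over 19937 genes with Benjamini-Hochberg. Exact permutation tests used scipy 1.17.1 and alignments Biopython 1.88. The number of arrays limits the precision. Members and lists were chosen with earlier results of these data known. All members, their receptors, and up to 4 higher and 4 lower called genes of each list were named, and other genes named (flanking genes, some markers, Srgn) and the motifs were chosen after values or windows were seen. Alternatives were a replicate block, leaving out each array, scaling, probe set choice, dim-gene filters, prior, weights and a Welch test.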

Additional observations from a re-analysis of the deposited data

How the results depend on the processing

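Over the 17 alternatives the count of changed ligands, 5 of 9, was 5 with the replicate block, 4 to 5 when 1 array was left out, 2 (Ccl9 and Ppbp) with all probe sets fitted, 3 among 5 ligands above the median level and 0 with the Welch test. Ccl9 and Ppbp passed in every alternative that tested them other than the Welch test, and Ccl3 and Ccl5 in all but that and the fit of all probe sets. Cxcl2 turned sign with array weights (-0.033) and when flox/flox replicate 2 (-0.033) or Mx1Cre replicate 1 (-0.038) was left out, and Cxcl10 without Mx1Cre replicate 1 (0.0003). Without 1 array they ran from -0.038 to 0.11 and from -0.097 to 0.0003. These did not pass in any setting. No other ligand turned sign. All genes changed numbered 979, 1089 with the replicate block, 538 to 785 without 1 array, 302 with all probe sets and 0 with the Welch test, which had 2124 at an unadjusted p under 0.05. Leaving out flox/flox 1, flox/flox 3, Mx1Cre 2 or Mx1Cre 3 gave 541, 547, 636 and 538, where fewer arrays are fitted. Receptors numbered 3 with the replicate block, which lost Ccr1, 3 to 4 without 1 array, 2 (Cxcr2 and Ccr2) with all probe sets and 0 with the Welch test. The other ligands numbered 0 in every alternative run. Deviations from the group means correlated at 0.188, 0.0515 and 0.174 between arrays numbered 1, 2 and 3. The numbers were not taken as pairs, since the labels state no design beyond the 2 groups. Every array other than Mx1Cre replicate 2 correlated best with its own number, a hint from the data and not the design. The replicate block changed no ligand's call.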
